A study of Polistes metricus with 16 samples.

Results

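A set of 100 transcripts was examined that stood higher in the heads of foundress-reared than of worker-reared larvae of the paper wasp Polistes metricus, and also higher in larvae fed ad libitum than in larvae on restricted food. The members were chosen from the measured values. Counts were expressed as CPM (counts relative to the library total, after adjustment of the totals with TMM factors, which even out differences in library composition). Of 24205 transcripts with a mean of at least 1 CPM, 3 were at 0 in all larvae of a pair of groups and gave no t, and the other 24202 were ranked by the smaller of 2 t statistics for unequal variances on log2(CPM + 0.5), foundress-reared minus worker-reared and ad libitum minus restricted. The first 100 in rank were taken, out of 74517 rows in the table. Both differences are therefore described here without a test, since the choice of members fixed their direction. The table gives no gene names beside its identifiers, so the members are given by identifier and no function can be attached to them.

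In paper wasps, a foundress starts the nest in spring and alone feeds the first larvae, which emerge as workers. Those workers later feed the larvae that become the next generation of queens. Queens and workers look much alike, and the amount of food a larva receives is regarded as one of the influences that bias it towards either caste. Insect larvae respond to food through insulin and TOR signalling, juvenile hormone and ecdysone, and store protein in the fat body for metamorphosis. None of these pathways could be read here, because the identifiers carry no names. For the same reason the label of the tissue, head, could not be checked against marker genes.

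RNA from single heads of female larvae in the fifth instar was sequenced, with 4 larvae in each of 4 groups. Foundress-reared, worker-destined larvae were collected in late spring of 2010 and worker-reared, queen-destined larvae in late summer of 2010, both from field nests in Iowa. Season thus cannot be told apart from rearing caste. The laboratory larvae came from nests collected in North Carolina in 2009, where restricted nests received a worm every 3 days and ad libitum nests one at intervals of 1 day. No genotype or other treatment is labelled, and the labels do not say which larvae shared a nest, so a p-value covers no more than the variation among the larvae sampled. Replicate numbers only name larvae. Library totals ran from 28359372 to 37626473 counts. In whole heads, fewer cells of a type and less RNA per cell cannot be told apart.

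Several libraries stood apart. TMM factors ran from 0.650 to 1.20 in foundress-reared, from 1.03 to 1.35 in worker-reared, from 0.711 to 1.28 in ad libitum and from 0.869 to 1.32 in restricted larvae. The 10 most abundant transcripts took 32.1% of the counts in foundress-reared replicate 4 and 28.1% in ad libitum replicate 3, against 7.58% to 18.7% in the other 14 libraries. The scaling matters for the field pair. With no scaling factors, 57 of the 100 members had a higher mean log2 level in foundress-reared than in worker-reared larvae, and all 100 had a higher one in ad libitum than in restricted larvae. The median member difference between foundress-reared and worker-reared larvae was then 0.04 on the log2 scale against 0.51 with TMM, while the median of all ranked transcripts moved from 0.03 to -0.40. A scaling factor moves all transcripts of a library by nearly the same log2 amount. The gap between the members and all ranked transcripts is therefore nearly fixed in advance, and nothing is read from it. The members took 0.495% ± 0.103 of raw counts in foundress-reared and 0.459% ± 0.0781 in worker-reared larvae, and 0.530% ± 0.104 in ad libitum and 0.377% ± 0.129 in restricted larvae (SD, n = 4 each). Whether library composition contributes to the field difference was not tested.

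The smaller t ran from 2.98 to 5.13 over the members, with a median of 3.26. The t of foundress-reared minus worker-reared larvae reached 12.6, and that of ad libitum minus restricted larvae 5.25. The boundary was narrow. The last 5 members had a smaller t of 2.98 to 3.001 and the next 5 transcripts one of 2.96 to 2.97. At rank 99, PmetTSAr1.1-001463 had a smaller t of 2.981, and at rank 100 PmetTSAr1.1-003392 one of 2.979. The first transcripts outside, PmetTSAr1.1-001964 and PmetTSAr1.1-033079, had 2.972 and 2.965. The same rule with the signs turned round, which picks transcripts high in worker-reared and restricted larvae, gave a 100th value of 2.79.

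**Figure D1:**
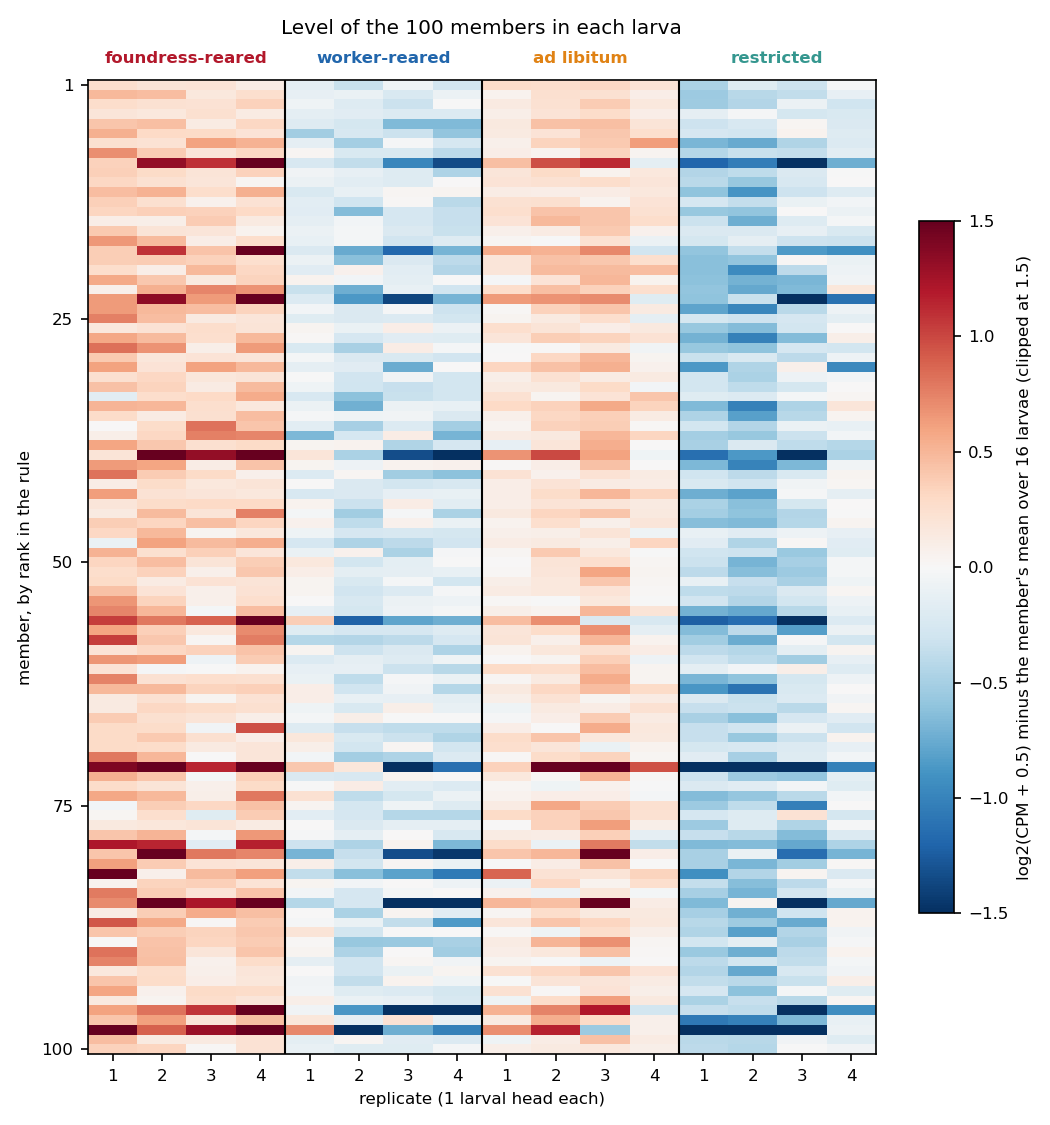
Each row is 1 of the 100 members in order of rank and each column 1 larva, with colour showing log2(CPM + 0.5) minus the member's mean over the 16 larvae, clipped at 1.5. The foundress-reared and ad libitum columns are mostly red, the worker-reared and restricted columns mostly blue, and restricted replicate 4 is the palest of the restricted larvae (mean deviation -0.15).

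The members ranked first had modest but steady differences. PmetTSAr1.1-002199 had 77.1, 74.5, 74.7 and 69.95 CPM in foundress-reared replicates 1 to 4 and 58.5, 51.4, 62.3 and 53.4 CPM in worker-reared larvae. The ad libitum larvae had 78.8, 78.2, 81.0 and 74.8 CPM of it and the restricted larvae 46.5, 57.3, 52.5 and 64.0 CPM. The 8 larvae of the high groups thus lay at 69.95 CPM or above and the 8 of the low groups at 63.97 CPM or below. This transcript, at rank 1, was 1.31-fold higher in foundress-reared than worker-reared larvae and 1.42-fold higher in ad libitum than restricted larvae. Its mean without scaling factors was 62.5 against 65.5 CPM in foundress-reared and worker-reared larvae, so its field direction depended on the scaling.

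PmetTSAr1.1-015173 had 166, 163, 131 and 141 CPM in foundress-reared replicates 1 to 4 and 108, 109.7, 100.7 and 111 CPM in worker-reared larvae. Its laboratory levels were 122, 139, 138 and 127 CPM with ad libitum and 80.9, 88.2, 91.5 and 109 CPM with restricted food. No value of the low groups reached the lowest of the high groups, and restricted replicate 4 was the highest restricted larva. PmetTSAr1.1-016229 had 80.4, 78.6, 83.1 and 76.9 CPM in foundress-reared replicates 1 to 4 and 63.9, 62.5, 61.2 and 61.1 CPM in worker-reared larvae. Values with ad libitum food were 75.1, 81.7, 85.5 and 75.6 CPM, and with restricted food 64.2, 69.6, 58.5 and 60.4 CPM. This transcript had the field t of 12.6, the highest of the set, with folds of 1.28 and 1.26. Without scaling factors its means were 67.7 against 71.7 CPM in foundress-reared and worker-reared larvae.

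PmetTSAr1.1-027031 had 3.82, 3.7, 3.69 and 4.05 CPM in foundress-reared replicates 1 to 4 and 2.92, 2.64, 2.38 and 3.08 CPM in worker-reared larvae. In the laboratory it had 3.43, 3.71, 4.17 and 3.49 CPM in ad libitum and 1.97, 2.14, 2.88 and 2.42 CPM in restricted larvae. This was one of the least abundant of the first 10. PmetTSAr1.1-006537 had 16.1, 16.5, 13.0 and 14.9 CPM in foundress-reared replicates 1 to 4 and 10.4, 9.84, 7.38 and 7.37 CPM in worker-reared larvae. The ad libitum larvae had 13.2, 16.4, 16.5 and 13.8 CPM of it and the restricted larvae 9.53, 10.02, 12.2 and 10.2 CPM. Its lowest high-group value, 13.0 CPM, lay just above the highest low-group value, 12.2 CPM in restricted replicate 3. PmetTSAr1.1-020810 ranged over 21.3 to 26.9 CPM in foundress-reared and 12.1 to 15.6 CPM in worker-reared larvae, and over 20.2 to 24.5 CPM in ad libitum and 15.2 to 19.1 CPM in restricted larvae. It was the one member called between foundress-reared and worker-reared larvae when the difference was fitted with edgeR over all transcripts, where 0.0193% of the 36337 tested were called higher. For ad libitum over restricted food edgeR called no member, nor any other transcript (0%). At an unadjusted p under 0.05 the members higher numbered 93 in the field pair, against 8.65% of all tested, and 94 in the laboratory pair, against 6.02%. Since the rule used both differences, nothing is read from these counts.

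PmetTSAr1.1-012473 ranged over 12.6 to 16.6 CPM in foundress-reared and 7.38 to 10.6 CPM in worker-reared larvae, and over 11.4 to 16.9 CPM in ad libitum and 6.17 to 9.25 CPM in restricted larvae. PmetTSAr1.1-001323 ranged over 200.5 to 287 CPM in foundress-reared and 135 to 179.7 CPM in worker-reared larvae, and over 181 to 223 CPM in ad libitum and 132 to 158 CPM in restricted larvae. PmetTSAr1.1-002564 ranged over 37.4 to 42.2 CPM in foundress-reared and 23.6 to 31.5 CPM in worker-reared larvae, and over 34.0 to 40.2 CPM in ad libitum and 24.1 to 32.6 CPM in restricted larvae. In each of these, too, the 8 high-group larvae lay above the 8 low-group larvae, by margins under 2 CPM. PmetTSAr1.1-031161, at rank 9, differed in kind. It had 1.37, 3.18, 2.66 and 6.37 CPM in foundress-reared and 0.745, 0.647, 0.251 and 0.0825 CPM in worker-reared larvae. It had 1.52, 2.39, 2.7 and 0.834 CPM in ad libitum and 0.146, 0.222, 0.0297 and 0.385 CPM in restricted larvae. These levels rest on few reads, with 1 count in restricted replicate 3 and 140 in foundress-reared replicate 4. Of the first 10 members, 6 kept a higher mean log2 level in foundress-reared than in worker-reared larvae with no scaling factors.

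**Figure D2:**
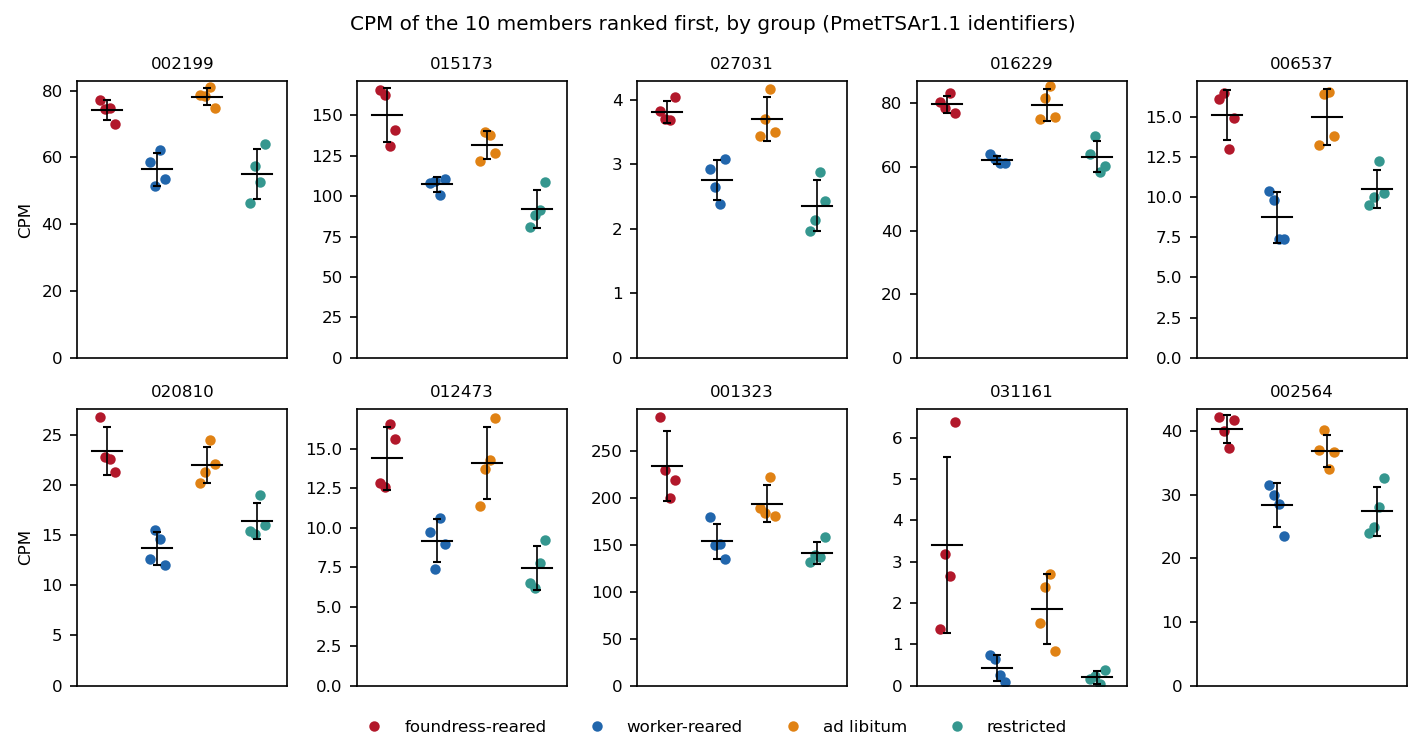
CPM of the 10 members ranked first in each larva (points), with the mean (long line) and SD (error bar, n = 4) of each group. In each panel the lowest foundress-reared or ad libitum larva lies above the highest worker-reared or restricted larva, as in PmetTSAr1.1-002199 at 69.95 against 63.97 CPM.

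Members ranged widely in abundance. Their mean over the 16 larvae ran from 1.13 to 528 CPM with a median of 20.4 CPM, against a median of 7.65 CPM over all ranked transcripts. In all, 29 members lay between 1 and 10 CPM, 60 between 10 and 100 CPM and 11 above 100 CPM. A t on log levels favours transcripts measured with little counting noise, so abundance is not independent of the choice. PmetTSAr1.1-000476 had 526, 723, 832 and 796 CPM in foundress-reared replicates 1 to 4 and 395, 301, 462 and 405 CPM in worker-reared larvae. Its laboratory levels were 601, 681, 632 and 594 CPM with ad libitum and 332, 292, 315 and 562 CPM with restricted food. This was the most abundant member, and restricted replicate 4 stood apart at 562 CPM, inside the range of the foundress-reared larvae and below the lowest ad libitum larva. PmetTSAr1.1-000306 ranged over 258 to 413 CPM in foundress-reared and 202 to 253 CPM in worker-reared larvae, and over 235 to 255 CPM in ad libitum and 189 to 242 CPM in restricted larvae. PmetTSAr1.1-012535 ranged over 211 to 307 CPM in foundress-reared and 181 to 219 CPM in worker-reared larvae, and over 215 to 302 CPM in ad libitum and 142 to 192 CPM in restricted larvae. PmetTSAr1.1-012630 ranged over 182 to 266 CPM in foundress-reared and 139 to 166 CPM in worker-reared larvae, and over 159 to 199 CPM in ad libitum and 136 to 154 CPM in restricted larvae. In all 3 the 8 high-group larvae overlapped the 8 low-group larvae, as worker-reared larvae reached the ad libitum range. The laboratory pair of PmetTSAr1.1-000306 and the field pair of PmetTSAr1.1-012535 also overlapped within themselves. PmetTSAr1.1-001323, described above, was the fourth in abundance and had no such overlap.

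Most members differed by less than 2-fold. The median fold was 1.44 for foundress-reared over worker-reared larvae (range 1.16 to 9.11) and 1.46 for ad libitum over restricted larvae (range 1.12 to 14.1). Both folds were under 1.5 in 39 members and under 2 in 84. A further 5 reached 2-fold in 1 pair only, and 11 reached it in both. The group of 11 was formed after the values were seen and has no test. All 11 stayed at 2-fold or more in both pairs with RLE scaling, upper quartile scaling and no scaling factors.

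**Figure D3:**
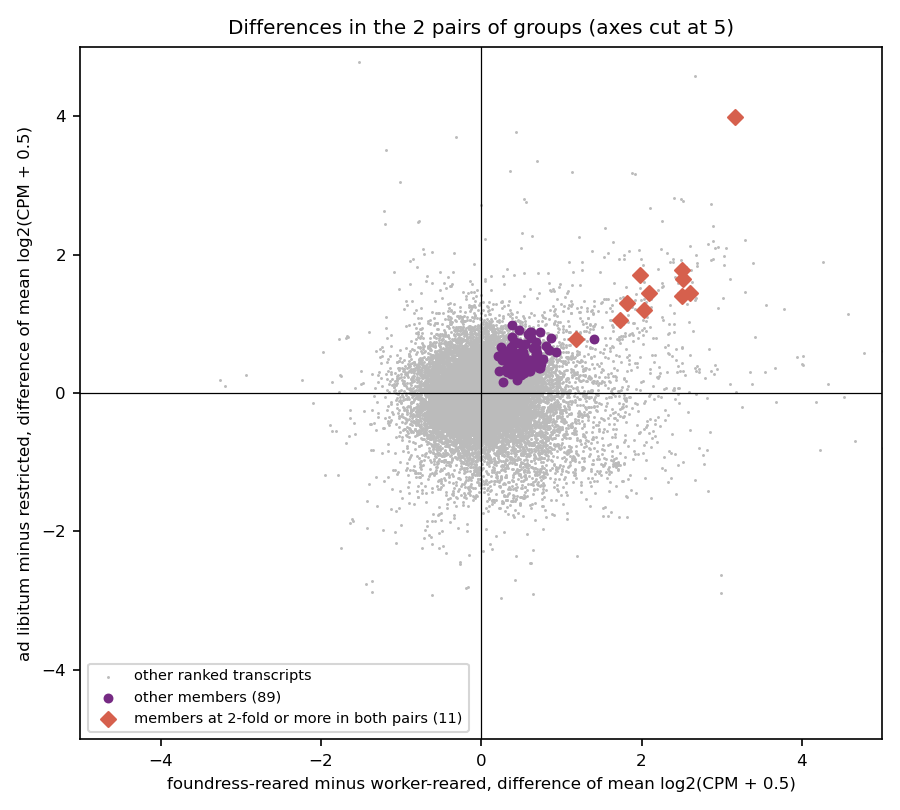
Difference of mean log2(CPM + 0.5) between foundress-reared and worker-reared larvae (horizontal) and between ad libitum and restricted larvae (vertical) for the ranked transcripts, with members in purple and the 11 at 2-fold or more in both pairs as red diamonds. Most members lie close to the median differences of 0.51 and 0.53, and the 11 reach 3.16 and 3.99, with the lowest of them among the other members.

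The steepest of the 11 was PmetTSAr1.1-006480. It had 52.8, 115, 44.2 and 327 CPM in foundress-reared and 26.3, 22.2, 1.99 and 8.78 CPM in worker-reared larvae. It had 25.2, 97.2, 63.6 and 38.8 CPM in ad libitum and 2.34, 3.73, 0.327 and 9.54 CPM in restricted larvae. The groups of the laboratory pair did not overlap and lay 14.1-fold apart in mean, while the field pair was 9.1-fold apart. Foundress-reared replicate 4 was far above its group, and ad libitum replicate 1 lay below the highest worker-reared larva.

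PmetTSAr1.1-008285 had 11.4, 38.8, 25.5 and 78.0 CPM in foundress-reared replicates 1 to 4 and 11.3, 6.99, 3.62 and 2.06 CPM in worker-reared larvae. Values with ad libitum food were 16.1, 20.1, 15.3 and 9.44 CPM, and with restricted food 4.24, 5.21, 1.4 and 7.0 CPM. The 2 field groups nearly met, at 11.4 CPM in foundress-reared replicate 1 and 11.3 CPM in worker-reared replicate 1. PmetTSAr1.1-009205 had 7.06, 14.6, 10.3 and 13.4 CPM in foundress-reared replicates 1 to 4 and 2.95, 3.39, 0.586 and 0.633 CPM in worker-reared larvae. In the laboratory it had 6.04, 5.83, 12.9 and 4.48 CPM in ad libitum and 2.41, 4.25, 0.981 and 2.22 CPM in restricted larvae. Here the 8 high-group larvae lay above the 8 low-group larvae, with and without scaling factors. PmetTSAr1.1-008320 had 16.8, 27.6, 16.8 and 68.0 CPM in foundress-reared replicates 1 to 4 and 9.11, 5.59, 3.76 and 6.36 CPM in worker-reared larvae. The ad libitum larvae had 16.8, 17.3, 17.7 and 9.28 CPM of it and the restricted larvae 6.83, 8.32, 2.5 and 4.6 CPM. It too separated the 8 high-group from the 8 low-group larvae under both. PmetTSAr1.1-031161 and PmetTSAr1.1-037671 were the other members that did so with no scaling factors, which makes 4 of the 100. No share over all tested transcripts stands beside that count, so nothing is read from it. PmetTSAr1.1-037671 was measured with 0 to 97 counts per library and was the one member with a library at 0, worker-reared replicate 4.

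PmetTSAr1.1-006107 ranged over 8.09 to 60.8 CPM in foundress-reared and 0.962 to 4.96 CPM in worker-reared larvae, and over 4.17 to 12.6 CPM in ad libitum and 0.981 to 3.95 CPM in restricted larvae. PmetTSAr1.1-007579 ranged over 10.1 to 36.3 CPM in foundress-reared and 3.12 to 6.53 CPM in worker-reared larvae, and over 6.21 to 13.0 CPM in ad libitum and 3.81 to 5.84 CPM in restricted larvae. PmetTSAr1.1-009273 ranged over 17.7 to 90.3 CPM in foundress-reared and 1.79 to 15.6 CPM in worker-reared larvae, and over 6.2 to 21.1 CPM in ad libitum and 2.32 to 8.66 CPM in restricted larvae. In each of these foundress-reared replicate 4 was the highest of the 16 larvae. The others of the 11 were PmetTSAr1.1-014431 and PmetTSAr1.1-009631, with means of 1.73 and 1.44 CPM over the 16 larvae. Foundress-reared replicate 4 was the highest larva of its group in 8 of the 11, worker-reared replicate 1 in 8, and restricted replicate 3 was the lowest of its group in 10. Without foundress-reared replicate 4 the folds of foundress-reared over worker-reared larvae were 2.69 to 9.19, and each of the 11 stayed above 2. The within-group SD of the log2 level had a median of 0.717 in the 11 and 0.196 in the other 89. With no scaling factors, the 11 were all higher in foundress-reared than in worker-reared larvae (log2 difference 0.80 or more), as were 46 of the other 89.

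**Figure D4:**
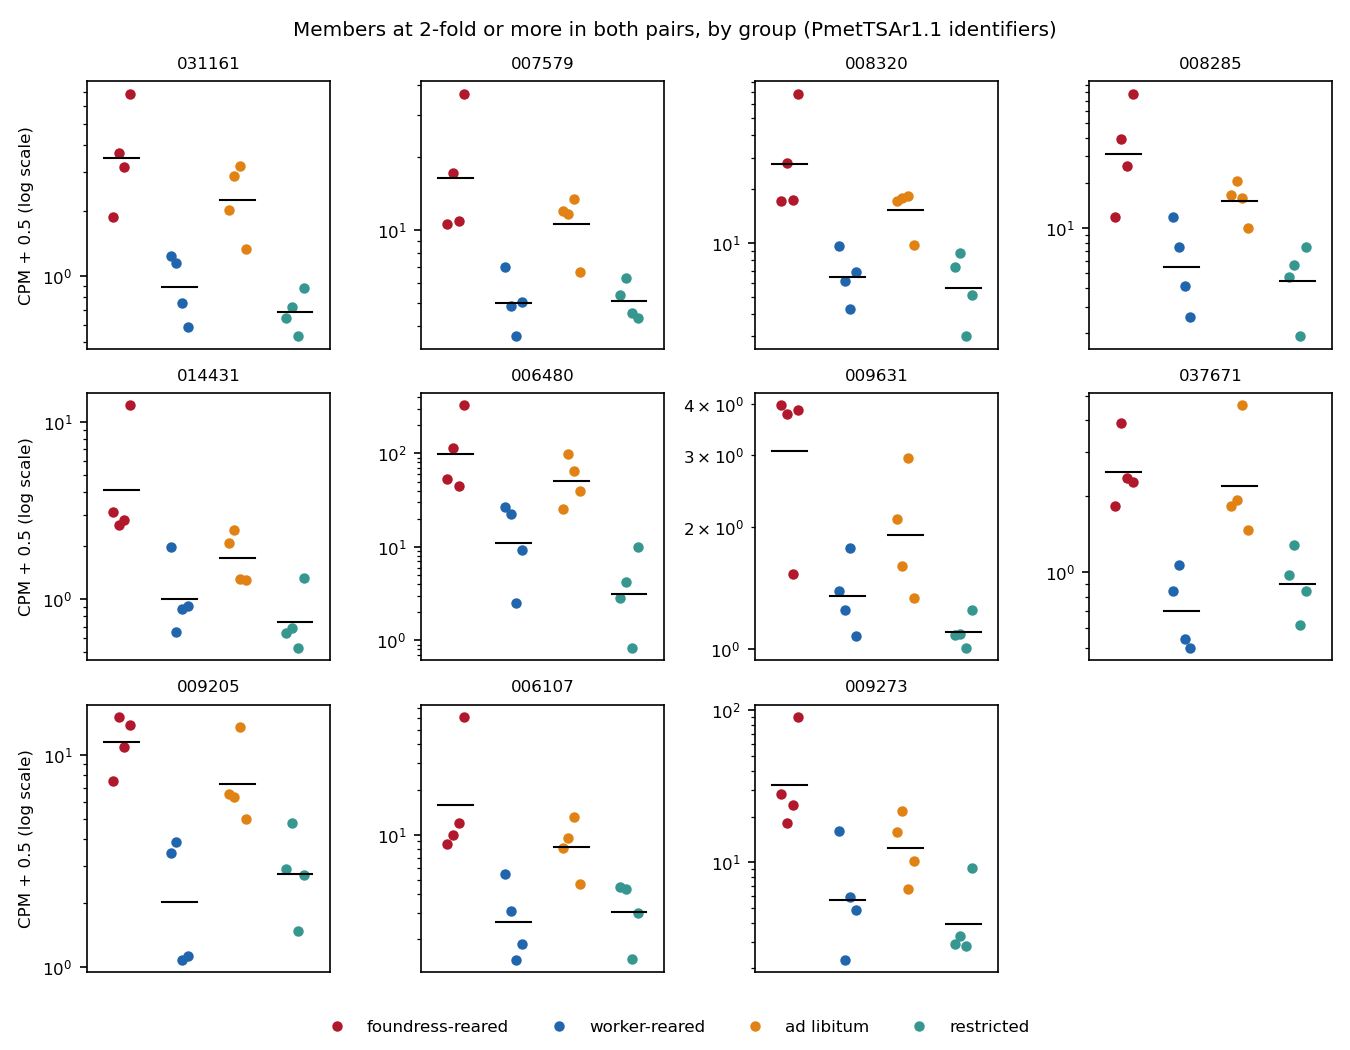
CPM + 0.5 on a log scale in each larva (points) for the 11 members at 2-fold or more in both pairs, with the mean on that scale as a line. Foundress-reared replicate 4 is the top point in most panels, at 327 CPM for PmetTSAr1.1-006480, and the worker-reared and restricted means lie below the other 2 means in each panel.

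The groups separated to different degrees. CPM of the 4 foundress-reared larvae lay wholly above that of the 4 worker-reared larvae in 83 members, where 4.40% of all tested transcripts did so. The ad libitum larvae lay wholly above the restricted larvae in 82 members, against 2.61% of all tested. Both held in 67 members, against 0.449%. The 8 high-group larvae lay wholly above the 8 low-group larvae in 43 members, out of 80 such transcripts among all tested (0.220%). These counts follow from the rule and are no evidence of their own. They moved with the scaling. Both pairs separated in 72 members with RLE factors (0.504% of all tested), in 36 with upper quartile factors (0.187%) and in 5 with no scaling factors (0.0413%), all 5 among the 11 steep ones.

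The rule fixed the order of the means within each pair of groups but not across the pairs. No share over all tested transcripts was counted for the highest or lowest group. Foundress-reared larvae had the highest mean log2 level in 86 members and ad libitum larvae in 14, and restricted larvae had the lowest in 75 and worker-reared larvae in 25. Neighbours in that order mostly overlapped. Foundress-reared larvae lay wholly above ad libitum larvae in 7 members, where 2.68% of all tested transcripts did so, and overlapped them in the other 93. No member had ad libitum larvae wholly above foundress-reared larvae, against 3.75% of all tested. With no scaling factors the 2 groups overlapped in all 100. Of all tested transcripts, 0.316% then had foundress-reared larvae wholly above ad libitum larvae, and 3.48% wholly below. Worker-reared larvae lay wholly above restricted larvae in 1 member and wholly below in 1, against 2.85% and 3.34% of all tested. The place of the foundress-reared larvae turned with the scaling, as they had the highest mean in 73 members with upper quartile factors and in 17 with no scaling factors, where ad libitum larvae were highest in 78. Restricted larvae were lowest in 75 to 89 members under the 4 scalings.

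Within groups, the same larvae recurred at the inner edges. Averaged over the members, log2 levels less each member's mean were 0.29 to 0.57 in foundress-reared and 0.10 to 0.38 in ad libitum larvae. They were -0.34 to -0.07 in worker-reared and -0.54 to -0.15 in restricted larvae. Restricted replicate 4, at -0.15, was the highest restricted larva in 71 of the 100 members, and worker-reared replicate 1, at -0.07, the highest of its group in 53. Among the high groups, ad libitum replicates 1 and 4 were the lowest of their group in 39 and 41 members, and foundress-reared replicate 3 in 47.

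A reading of the rule in larvae it did not use was made by choosing 100 transcripts anew from 15 larvae and then placing the larva left out. For each transcript it was asked whether that larva lay nearer to the mean of its own group than to that of the other group of its pair. Worker-reared replicates 2 and 4 lay nearer to their own group in 93 and 94 of 100 transcripts, and ad libitum replicate 2 in 95. Restricted replicates 1 and 2 did so in 96 and 87, and foundress-reared replicates 2 and 4 in 87 and 88. In 14 of the 16 larvae the share was 50% or more and lay above the share over all ranked transcripts, which ran from 40.8% to 73.8% in those 14. The 2 exceptions were both restricted larvae. Restricted replicate 3 lay nearer to its own group in 43 of 100 transcripts, against 61.3% of all ranked, and restricted replicate 4 in 12, against 24.4%. Members vary together within groups (mean correlation 0.297), so the 100 transcripts of a larva are not separate readings and the shares are no test. The levels were those with TMM factors, and the field direction of many members depended on that scaling.

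On a scale with the restricted mean at 0 and the ad libitum mean at 1, restricted replicate 4 had a median place of 0.853 over the transcripts chosen without it, and restricted replicate 3 one of 0.596. Restricted replicates 1 and 2 lay at -0.17 and -0.34, and the 4 worker-reared larvae at -0.12 to 0.38 on the matching field scale. The membership of the set leaned most on restricted replicate 4. Of the 100 members, 37 were chosen again without it. Omission of restricted replicates 3 and 1 kept 57 and 58, and omission of any other larva kept 64 to 82.

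**Figure D5:**
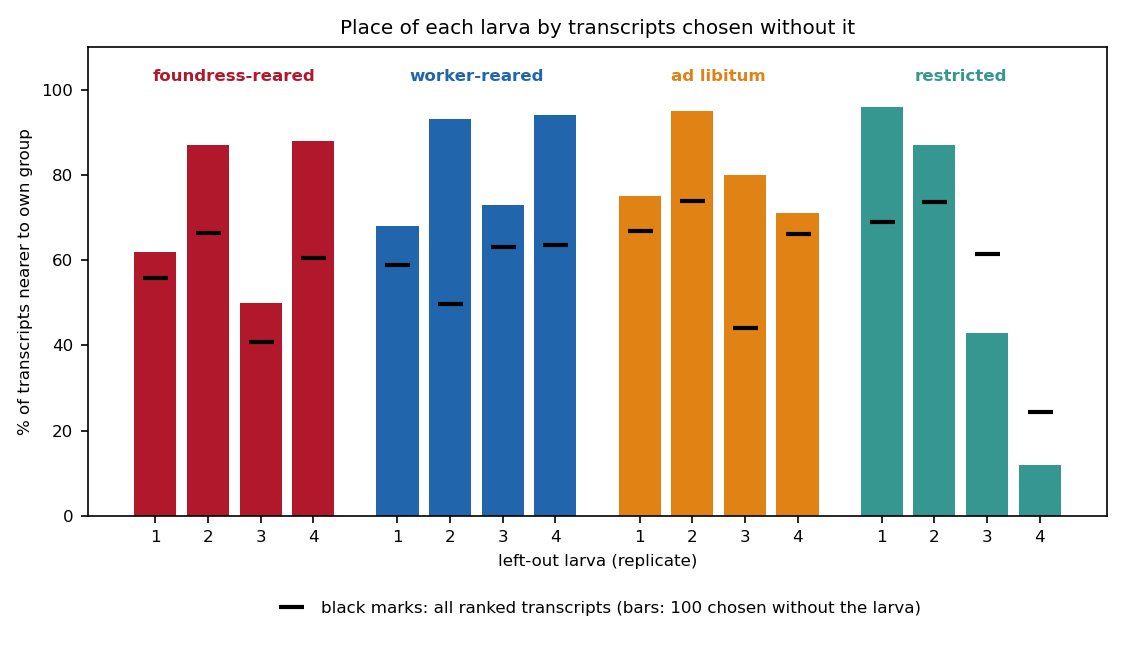
For each larva left out, bars give the percentage of 100 transcripts chosen from the other 15 larvae in which it lay nearer to its own group mean, and black marks the same percentage over all ranked transcripts. Bars stand above the marks in 14 larvae and below them in restricted replicates 3 and 4, at 43 and 12.

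The contrast of field with laboratory larvae is the direction among the 4 group means that the rule did not use. This contrast cannot tell laboratory rearing apart from year and state of collection, which also differed between field and laboratory larvae. It was fitted with edgeR's quasi-likelihood test to all 36337 transcripts that passed the count filter, among them all 100 members. No member was called at an adjusted p under 0.05, where 0.292% of all tested transcripts were called higher in field larvae and 0.688% lower. At an unadjusted p under 0.05, 24 members were higher in field larvae, against 6.91% of all tested, and 1 was lower, against 8.67%. That one was PmetTSAr1.1-015973, with 18.5 CPM on average in the field against 21.2 CPM in the laboratory (edgeR log2 fold change -0.20 with SE 0.0854, adjusted p = 0.288). The fitted sign was positive in 87 of the 100 members, against 48.6% of all tested, with a median log2 fold change of 0.16 against -0.01. All tested transcripts include some under the mean of 1 CPM that members had to reach. Over the ranked transcripts that were tested the median was 0.03. The rule also favours a small spread within groups, so the count of 24 is not independent of the choice. The median within-group SD of the log2 level was 0.203 in members against 0.316 over all ranked transcripts. The sign was positive in 84 to 89 members under RLE and upper quartile scaling and with DESeq2 and limma voom. With no scaling factors it was positive in 66 members, against 37.3% of all tested, with a median log2 fold change of 0.07 against -0.10. Only 1 member was then higher at an unadjusted p under 0.05, against 1.61% of all tested, and 0 were lower, so the count of 24 rested on the scaling. The 100 transcripts of the opposite rule had a median of -0.21.

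The smallest adjusted p among the members belonged to PmetTSAr1.1-003362. It had 19.4, 20.1, 16.8 and 20.3 CPM in foundress-reared, 11.8, 12.8, 14.2 and 14.3 CPM in worker-reared, 15.0, 14.9, 15.0 and 15.5 CPM in ad libitum and 8.99, 7.28, 11.1 and 12.1 CPM in restricted larvae. That was 16.2 CPM on average in the field against 12.5 CPM in the laboratory (edgeR log2 fold change 0.38 with SE 0.103, adjusted p = 0.0997). The order of its groups ran from foundress-reared over ad libitum and worker-reared to restricted larvae, and the ad libitum larvae lay close together. DESeq2 called 5 members higher in field larvae, where it called 1.33% of all tested, and none lower. Besides PmetTSAr1.1-003362 (DESeq2 adjusted p = 0.0133) they were PmetTSAr1.1-000774, PmetTSAr1.1-002139, PmetTSAr1.1-003031 and PmetTSAr1.1-012717, with DESeq2 adjusted p of 0.0354 to 0.0441 and log2 fold changes of 0.37 to 0.46. limma voom called 0 members.

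PmetTSAr1.1-012717 had 81.7, 73.4, 49.0 and 71.7 CPM in foundress-reared replicates 1 to 4 and 39.1, 32.6, 49.6 and 44.9 CPM in worker-reared larvae. Its laboratory levels were 45.8, 46.7, 50.5 and 44.4 CPM with ad libitum and 30.9, 29.98, 38.6 and 37.9 CPM with restricted food. Its worker-reared larvae overlapped the ad libitum larvae. PmetTSAr1.1-000774 had 272, 204, 182 and 214 CPM in foundress-reared replicates 1 to 4 and 153, 133, 155 and 159 CPM in worker-reared larvae. Values with ad libitum food were 166, 151, 178 and 155 CPM, and with restricted food 112, 97.2, 131 and 147 CPM. Restricted replicate 4 was again the highest of its group. Without restricted replicate 4, edgeR called 13 members higher in field larvae, with log2 fold changes of 0.33 to 0.63, where 3.22% of all tested were called higher. More members thus passed the test without that larva. Without foundress-reared replicate 3 edgeR called 1, PmetTSAr1.1-012717, where 0.346% of all tested were called higher, and with no scaling factors it called 0, against 0.160%. The 11 steep members had the widest errors, with SEs of 0.264 to 0.651 against 0.244 or less in the other 89, and fitted log2 fold changes of -0.35 to 1.57. PmetTSAr1.1-006480 had 74.8 CPM on average in the field against 30.1 CPM in the laboratory (edgeR log2 fold change 1.57 with SE 0.651, adjusted p = 0.266), and PmetTSAr1.1-014431 had 2.67 CPM on average in the field against 0.788 CPM in the laboratory (edgeR log2 fold change 1.40 with SE 0.59, adjusted p = 0.273). PmetTSAr1.1-037671 had the lowest log2 fold change, at -0.35 (edgeR, with SE 0.549 and adjusted p = 0.798).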

How the data were processed

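The deposited table holds whole-number counts per assembled transcript, 1 column per larva, as the authors made them. Bowtie2 and eXpress are named, per the submitters' processing notes, and their versions, the assembly, strand handling and which eXpress count was deposited are not stated there or in the labels (not given in the sources used here). Reads shared by near-identical transcripts may be counted for each or divided, so rows are not taken as genes.

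Transcripts were filtered with filterByExpr by group, scaled with TMM and fitted with edgeR 4.0.16 in R 4.3.3 (1 mean per group, all 16 libraries, robust quasi-likelihood F test, Benjamini-Hochberg over 36337 transcripts, threshold 0.05). Each SE was taken as the size of the log2 fold change over the square root of F. The fit was run on simulated data in which the changed transcripts had larger field over laboratory folds than any member. Recovery of differences of the members' size was not tested. DESeq2 1.42.0 and limma 3.58.1 were alternatives. No count intervals are given, since group SDs include counting error.

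The members, lists and named transcripts were chosen with earlier results of these data known. Named are the first 10 by rank, the 5 most abundant, the 2 members before and the 2 transcripts after the boundary and members called between field and laboratory larvae, of which there were 0. The others were chosen after their values were seen. Gene lists and cell type markers were not run, as no gene names were available.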

Additional observations from a re-analysis of the deposited data

Results flagged for a closer look

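Of 68 groups of 4 values examined over the named members and the mean level of all members, a lone value lay apart in 1, and about 3.4 would be so by chance. PmetTSAr1.1-000476, the most abundant member, was at 562 CPM in restricted replicate 4, while restricted replicates 1 to 3 had 292 to 332 CPM. The ad libitum larvae had 594 to 681 CPM of it. Restricted replicate 4 was also the larva placed outside its group by most transcripts chosen without it, and its 10 most abundant transcripts took 7.58% of its counts, against 11.5% to 18.7% in the other restricted larvae. The part of either in this value was not tested.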

How the results depend on the processing

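The set of members depended most on scaling and on single larvae. Of the 100 members, 89 were chosen again with RLE factors, 74 with upper quartile factors, 95 and 98 with pseudocounts of 2 and 0.1 CPM, 94 with a floor of 0.5 CPM and 81 with none. Only 14 were chosen again with no scaling factors, 11 of them the steep members, and 51 with edgeR's statistic for the ranking. Leaving out 1 larva kept 37 to 82. The 8 high-group and 8 low-group larvae were separate in 43 members, against 0.220% of all tested transcripts. They were separate in 22 with upper quartile and 4 with no scaling factors, and in 43 to 57 when 1 larva was left out. No share over all tested transcripts stands beside these alternative counts, and fewer larvae separate more easily in any transcript, so nothing is read from them. Members called higher in field larvae numbered 5 with DESeq2, 0 to 13 when 1 larva was left out (1 without foundress-reared replicate 3, PmetTSAr1.1-012717, 13 without restricted replicate 4 and 0 otherwise) and 0 under the other alternatives. None was called lower under any alternative run. Positive signs numbered 66 with no scaling factors and 83 to 92 when 1 larva was left out. These signs, the 2-fold counts and the field against laboratory fit with no scaling factors were added after seeing the data. Of 368 field over laboratory log2 fold changes of 16 named members under 23 alternatives, 360 kept their sign and none was called. The 8 that turned lay near 0. With no scaling factors PmetTSAr1.1-002564 went from 0.09 to -0.024 and PmetTSAr1.1-003392 from 0.10 to -0.010. PmetTSAr1.1-016229 went from -0.01 to 0.0048 with RLE factors, 0.0058 with DESeq2 and -0.026 to 0.016 when a larva was left out, and PmetTSAr1.1-002199 from -0.02 to between -0.059 and 0.019 when a larva was left out, the last without restricted replicate 4. The cause was not tested. No paired analysis was possible because replicate numbers follow the order of the records and pair no larvae.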

Other observations

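Many members varied together within groups. After each group mean was taken off, the mean correlation over the 4950 pairs of members was 0.297 over the 16 larvae, against 0.00211 over all ranked transcripts and 0.200 over the 100 of the opposite rule. Larvae, library scaling and the choice by small spread are shared by all pairs, so this is a description. The correlation was below 0 in 919 of the 4950 pairs. The 11 steep members had a mean of 0.536 (-0.32 to 0.942) and the other 89 one of 0.340. Both exceed 0.297, so pairs of a steep member with another member had a lower mean than that.

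In 16 pairs, which held 26 members, the correlation was above 0.9. The closest was PmetTSAr1.1-012369 with PmetTSAr1.1-012366, at 0.982. PmetTSAr1.1-012369 had 47.1, 48.5, 48.2 and 46.3 CPM in foundress-reared, 33.4, 23.9, 31.6 and 29.4 CPM in worker-reared, 44.9, 50.9, 50.5 and 44.3 CPM in ad libitum and 25.3, 24.7, 37.8 and 35.3 CPM in restricted larvae. PmetTSAr1.1-012366 had 48.4, 48.7, 47.7 and 44.6, 35.1, 24.1, 32.2 and 28.3, 42.4, 50.8, 49.8 and 44.7 and 24.0, 24.7, 37.8 and 34.8 CPM in the same order. The values of the pair are nearly the same in each larva, and whether they are forms of 1 gene that share reads was not tested. Another pair with close numbers was PmetTSAr1.1-014108 with PmetTSAr1.1-014105, at 0.941.

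No 2 members had consecutive identifiers. Of 174 ranked transcripts next to a member in the numbering, 72 were higher in both pairs of groups, against 30.1% of all ranked transcripts, and 23 lay among the first 1000 ranks. In 4 of the 174 pairings the correlation with the member was above 0.9. Among these was PmetTSAr1.1-006108, just below the last rank, next to the steep member PmetTSAr1.1-006107 (correlation 0.974).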
